A study of Homo sapiens with 16 samples.

Results

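Circadian clock genes were described in HepG2 cells, an established human liver cancer line, after siRNA against HCF-1 or after control siRNA. The 10 genes CLOCK, ARNTL (also called BMAL1), PER1, PER2, PER3, CRY1, CRY2, NR1D1, NR1D2 and DBP were taken by gene name from the 56969 genes of the deposited table, and each name matched 1 gene. HCF-1 is a chromatin-bound cofactor encoded by HCFC1. Cells of the HCF-1 siRNA group and of the control siRNA group were reverse transfected, transfected again 2 days later and harvested 2 days after that, with 8 biological replicates in each group. All cultures are of the same cell line, and the labels give neither the siRNA sequences nor the number of siRNAs. The time of day at harvest is not given in the labels, and neither is a treatment that sets the clocks of the cells to a common phase.

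The mammalian clock is a transcriptional feedback loop. CLOCK and ARNTL bind E-box DNA as a pair and activate the PER and CRY genes, whose proteins return to the nucleus and repress that pair. In a second loop, ROR receptors activate ARNTL, and the nuclear receptors REV-ERB alpha and beta, encoded by NR1D1 and NR1D2, repress it through a shared DNA element. DBP is an output factor that binds D-box DNA together with its relatives TEF and HLF, while NFIL3 represses from the same sites. In liver, these loops set daily rhythms of glucose, lipid and bile acid genes.

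DBP was the clock gene with the largest change. It fell in HCF-1 siRNA libraries by 0.73 ± 0.12 on the log2 scale, with no overlap between the groups. CLOCK (0.48 ± 0.18) and PER2 (0.23 ± 0.08) passed the same test as higher, both near the threshold. The other 7 members did not pass. In all, 30.0% of the members were called, against 36.6% of the 16081 genes tested. The share among the members was thus near that of genes in general. Among the 5981 genes with a mean of 100 to 1000 normalized counts, the range in which all members lie, 37.8% were called, 17.5% as higher and 20.3% as lower. On recovered reads, edgeR called 36.5% and DESeq2 38.9% of genes. Each change is given as log2 of HCF-1 siRNA to control siRNA, ± its standard error from limma on log2(normalized count + 1), and a gene was called at a Benjamini-Hochberg adjusted p under 0.05 over all genes with a mean of 10 or more normalized counts. In bulk RNA, fewer cells of a type and less RNA per cell cannot be told apart.

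The knockdown and the cell type were checked in the same libraries. HCFC1 averaged 3682 ± 340 normalized counts in HCF-1 siRNA libraries and 5631 ± 671 in control siRNA libraries (SD, n = 8 each), or 65.4% of the control mean, without overlap. Recovered reads totalled 25098840 to 43186890 per HCF-1 siRNA library and 21030830 to 32820459 per control siRNA library. The 7 hepatocyte and HepG2 markers summed to 531127 to 631261 normalized counts in HCF-1 siRNA libraries and to 444531 to 523572 in control siRNA libraries, with 6 of 7 called higher. The 4 leukocyte markers summed to 51.7 to 112 normalized counts in HCF-1 siRNA libraries and to 71.5 to 134 in control siRNA libraries, and CD3E was at 0 in all of them. Summed levels overlapped between the groups for the leukocyte, endothelial, fibroblast and cholangiocyte markers. The cholangiocyte sum, 7790.6 to 8180.9 in HCF-1 siRNA libraries and 6919.1 to 7831.5 in control siRNA libraries, was almost entirely SOX9, and its members went both ways. SOX9 was called higher (0.15 ± 0.03, limma adjusted p = 0.000817), KRT7 was called lower (-1.03 ± 0.36, limma adjusted p = 0.034), and CFTR was near 0 in both groups. Among the fibroblast markers, COL1A1 was called lower (-0.56 ± 0.15, limma adjusted p = 0.00718). The part of these marker levels in the changes of clock genes was not tested.

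Promoter sequences were read from RefSeq on build GRCh38.p14, where all 10 members were found, with 15 start sites between them. The stretches run 5′ to 3′ on the gene's strand, from 250 bases before the start to at most 20 after it, and end earlier where annotated exons begin. The 3 called members are shown because the results turn on them, and PER1, NR1D1 and NR1D2 because they hold the E-box or the module bound by ZNF143 and THAP11, factors known to recruit HCF-1. Capitals mark matches on either strand to CACGTG (E-box), CACGTT (E-prime box), TTATGTAA or TTACGTAA (D-box), AGGTCA (the core of the ROR and REV-ERB element) and the module bound by ZNF143 and THAP11, none of which overlap here.
DBP, chr19:48637419-48637629, minus strand: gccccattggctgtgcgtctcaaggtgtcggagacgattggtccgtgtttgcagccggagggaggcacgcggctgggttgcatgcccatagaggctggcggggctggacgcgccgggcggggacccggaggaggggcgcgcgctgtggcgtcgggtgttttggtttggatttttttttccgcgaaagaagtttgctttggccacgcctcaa
CLOCK, chr4:55545913-55546182, minus strand: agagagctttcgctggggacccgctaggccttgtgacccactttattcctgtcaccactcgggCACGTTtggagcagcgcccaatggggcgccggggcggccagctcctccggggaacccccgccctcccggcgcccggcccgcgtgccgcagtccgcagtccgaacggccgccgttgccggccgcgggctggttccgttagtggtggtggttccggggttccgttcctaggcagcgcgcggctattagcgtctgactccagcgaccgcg
PER2, chr2:238288591-238288860, minus strand: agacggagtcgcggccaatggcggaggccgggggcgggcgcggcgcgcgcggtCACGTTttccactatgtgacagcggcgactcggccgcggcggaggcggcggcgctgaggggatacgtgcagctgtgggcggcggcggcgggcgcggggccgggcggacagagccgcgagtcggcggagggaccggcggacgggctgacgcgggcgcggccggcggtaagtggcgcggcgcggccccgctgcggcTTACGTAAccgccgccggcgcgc
PER1, chr17:8152416-8152654, minus strand: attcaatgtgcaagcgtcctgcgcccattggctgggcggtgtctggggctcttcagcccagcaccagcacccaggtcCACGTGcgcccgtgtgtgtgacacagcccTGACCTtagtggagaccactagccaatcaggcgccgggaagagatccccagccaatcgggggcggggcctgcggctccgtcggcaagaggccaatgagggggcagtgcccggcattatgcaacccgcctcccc
NR1D1, chr17:40100706-40100839, minus strand: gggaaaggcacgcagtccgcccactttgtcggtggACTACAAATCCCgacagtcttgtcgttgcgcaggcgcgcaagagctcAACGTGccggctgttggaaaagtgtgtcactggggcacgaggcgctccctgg
NR1D2, chr3:23945871-23946140, plus strand: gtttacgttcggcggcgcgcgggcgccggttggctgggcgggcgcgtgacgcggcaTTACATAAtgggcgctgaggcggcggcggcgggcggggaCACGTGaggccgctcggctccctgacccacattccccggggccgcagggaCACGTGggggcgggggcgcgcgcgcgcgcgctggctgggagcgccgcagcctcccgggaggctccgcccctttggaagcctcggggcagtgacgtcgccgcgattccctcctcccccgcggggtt

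As background, the same motifs were counted in 35116 RefSeq promoters searched over the same window. CACGTG was found in 6.78% of them, CACGTT in 4.82%, AGGTCA in 12.8%, TTATGTAA in 0.86%, TTACGTAA in 0.117% and the ZNF143 and THAP11 module in 1.73%. The PER2 stretch held CACGTT from base -197 to -192 and TTACGTAA from -3 to 5, counted from the start site with no base 0. The NR1D2 stretch, from the second of its start sites, held CACGTG at -155 to -150 and at -105 to -100. NR1D2 also held TTATGTAA at -194 to -187. PER1 held CACGTG at -173 to -168 and AGGTCA at -144 to -139, and CLOCK held CACGTT at -187 to -182. NR1D1 held the ZNF143 and THAP11 module at -215 to -204 and CACGTT at -168 to -163. Among members not shown, CRY1 held CACGTT, CRY2 held CACGTT and AGGTCA, and PER3 held TTATGTAA. In all, 8 of the 10 members held a match. Whether the members hold more matches than other promoters was not tested. The DBP window held none of these motifs. These are matches of letters, not measured binding, and the absence of a match says only that the letters are not in this window.

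DBP, the D-box activator that is read out from the core loop, had 90.99, 128.5 and 151.0 normalized counts as lowest, median and highest values in HCF-1 siRNA libraries. The same values in control siRNA libraries were 179.5, 195.6 and 239.4. All 8 HCF-1 siRNA libraries lay below every control siRNA library, as the plot of counts by library shows. The means were 124.9 ± 26.0 in HCF-1 siRNA libraries and 205.3 ± 22.7 in control siRNA libraries (SD, n = 8 each). This is 1.66-fold lower in HCF-1 siRNA cells (95% interval of the log2 fold change -0.99 to -0.48, limma adjusted p = 0.000174). An exact permutation test, two-sided, gave p = 0.000155, the smallest possible with 8 libraries in each group. Of all genes tested, 18.3% were called lower, 5.23% were lower without overlap, and 2.06% were called lower by 0.7 or more on the log2 scale. Between 80 and 236 recovered reads lay behind each DBP value. Counting error alone gives a coefficient of variation of 8.34% in HCF-1 siRNA libraries and 7.21% in control siRNA libraries, against measured values of 20.9% and 11.0% in those groups. SPHK2, the opposite-strand neighbour, shares 10.1% of DBP exon bases in GENCODE 29, and whether the authors counted by strand is not given in the sources, so reads of the 2 genes may not be told apart. SPHK2 averaged 445.5 ± 49.8 normalized counts in HCF-1 siRNA libraries and 406.2 ± 48.0 in control siRNA libraries (0.13 ± 0.08), and did not pass (limma adjusted p = 0.233). With the reads thinned to the smallest library, the log2 fold change of DBP was -0.74 (limma adjusted p = 0.000188).

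**Figure D1:**
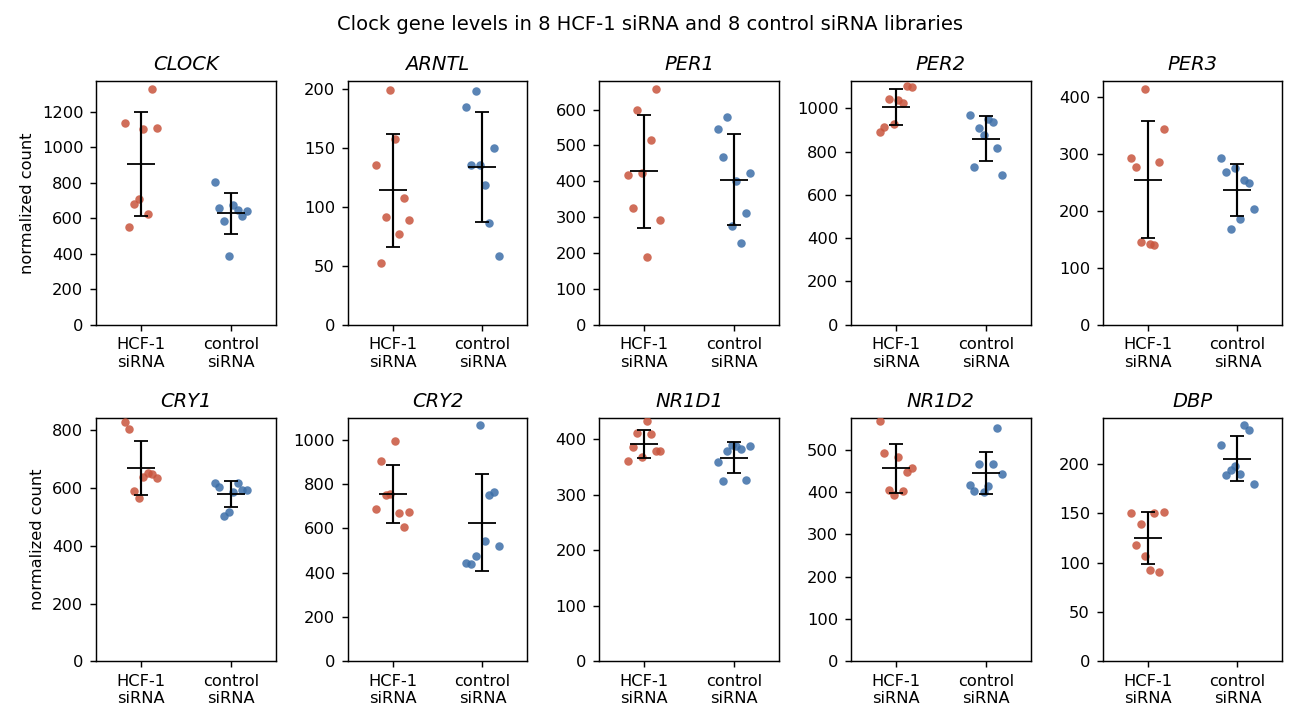
Normalized counts of the 10 clock genes, 1 point per library, with HCF-1 siRNA to the left of control siRNA. Bars show the mean and SD of 8 libraries, and each vertical axis starts at 0. DBP is the panel in which the 8 HCF-1 siRNA libraries (90.99 to 151.0) lie below all control siRNA libraries (179.5 to 239.4).

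TEF and HLF, the other D-box activators of the family, did not follow DBP. HLF was the most abundant of the 3 per length, at 2100 ± 112 normalized counts per kilobase of exon in HCF-1 siRNA libraries and 1940 ± 193 in control siRNA libraries. TEF had 101 ± 33.9 and 107 ± 22.2 in the same groups, and DBP 19.1 ± 3.98 and 31.4 ± 3.46. The length is that of all annotated exons, 6544 bases for DBP, 4715 for TEF and 6602 for HLF. Exons not used in these cells would lower a gene's value, so the gap between DBP and the others depends on these lengths. The change was 0.12 ± 0.05 for HLF and -0.11 ± 0.17 for TEF, and neither passed (limma adjusted p = 0.0903 and 0.661). The log2 ratio of DBP to HLF averaged -6.81 ± 0.28 in HCF-1 siRNA libraries and -5.96 ± 0.12 in control siRNA libraries (SD, n = 8 each), with no overlap. The difference was -0.85 ± 0.11 (SE; two-sided exact permutation p = 0.000155, adjusted p = 0.0014 over 9 pairs of paralogs or partners). For DBP to TEF the ratio averaged -1.89 ± 0.34 in HCF-1 siRNA libraries and -1.27 ± 0.33 in control siRNA libraries. That difference was -0.63 ± 0.17 (two-sided exact permutation adjusted p = 0.014). These were the 2 pairs of the 9 that passed, and both involve DBP. NFIL3, the repressor of the same sites, rose by 0.32 ± 0.05 (limma adjusted p = 0.000168), with 2107 ± 161 normalized counts in HCF-1 siRNA libraries and 1691 ± 109 in control siRNA libraries.

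**Figure D2:**
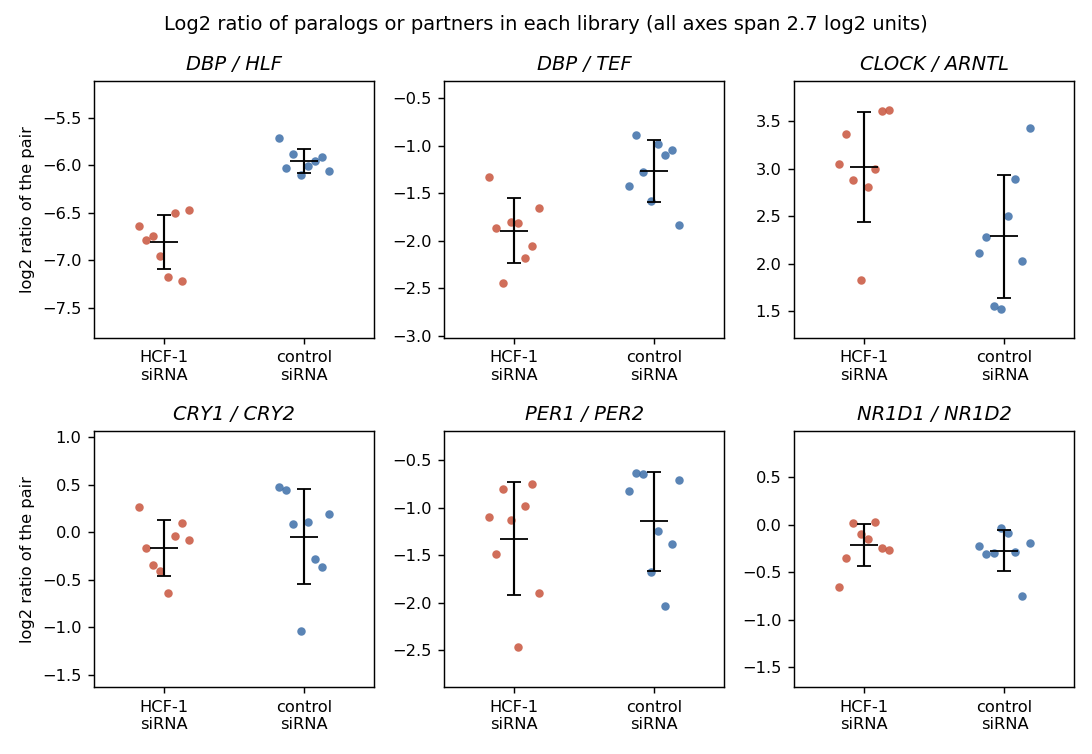
Log2 ratio of the normalized counts of 2 genes in each library, with HCF-1 siRNA to the left of control siRNA. Points are libraries, bars the mean and SD of 8, and every axis spans the same length. DBP to HLF is the panel without overlap, with means of -6.81 in HCF-1 siRNA libraries and -5.96 in control siRNA libraries.

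CLOCK, the histone acetyltransferase partner of ARNTL, ran from 551.4 to 1328 normalized counts with a median of 908.2 in HCF-1 siRNA libraries, and from 390.2 to 804.3 with a median of 645.7 in control siRNA libraries. HCF-1 siRNA replicates 1, 5, 7 and 8 had 1136, 1107, 1328 and 1108 normalized counts, above every control siRNA library. The other 4 HCF-1 siRNA libraries had 551.4 to 709.1, inside the control range. The means were 905.4 ± 295 in HCF-1 siRNA libraries and 627.8 ± 116 in control siRNA libraries, with a 95% interval of the change from 0.10 to 0.87 (limma adjusted p = 0.0463). By exact permutation, two-sided, p was 0.0347. Of all genes tested, 18.2% were called higher. The call was lost in 13 of 27 alternatives, among them total-count scaling and the fits that left out HCF-1 siRNA replicate 1, 5, 7 or 8, or any control siRNA replicate but the first. Its adjusted p spanned 0.0116 to 0.104. CLOCK shares 0.646% of its exon bases with TMEM165, on the opposite strand, which did not pass (0.02 ± 0.08).

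ARNTL, the second gene of the activator pair, was the least abundant member per length in both groups. It ran from 52.76 to 199.6 normalized counts with a median of 99.91 in HCF-1 siRNA libraries, and from 58.69 to 198.8 with a median of 135.4 in control siRNA libraries. The ranges were almost the same. The change was -0.25 ± 0.27 (95% interval -0.81 to 0.32, limma adjusted p = 0.504). The interval leaves room for a decrease or a small increase. The log2 ratio of CLOCK to ARNTL averaged 3.02 ± 0.58 in HCF-1 siRNA libraries and 2.29 ± 0.65 in control siRNA libraries, a difference of 0.73 ± 0.31 (two-sided exact permutation p = 0.0351, adjusted p = 0.105 over 9 pairs). It did not pass. The adjusted p was 0.0214 without HCF-1 siRNA replicate 4 and 0.028 without control siRNA replicate 8. NPAS2, the paralog that can take the place of CLOCK, rose by 0.29 ± 0.06 (limma adjusted p = 0.00116), with 1962 ± 157 normalized counts in HCF-1 siRNA libraries and 1602 ± 146 in control siRNA libraries. Per kilobase of exon NPAS2 had 157 ± 12.6 in HCF-1 siRNA libraries and 128 ± 11.7 in control siRNA libraries, above CLOCK with 77.0 ± 25.1 and 53.4 ± 9.83 in the same groups.

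Among the PER genes, which encode the repressors that accumulate first in the loop, PER2 alone passed. PER2 ran from 892.5 to 1105 normalized counts with a median of 1029 in HCF-1 siRNA libraries, and from 691.5 to 968.0 with a median of 892.6 in control siRNA libraries. In 5 HCF-1 siRNA libraries the value was above the highest control library. The means were 1004 ± 83.0 in HCF-1 siRNA libraries and 859.4 ± 104 in control siRNA libraries (0.23 ± 0.08, 95% interval 0.07 to 0.39, limma adjusted p = 0.0241), and exact permutation gave a two-sided p of 0.00824. The call was lost in 2 of 27 alternatives, without control siRNA replicate 2 (adjusted p = 0.051) and with no filter on low values (adjusted p = 0.0531). PER1 ran from 187.6 to 656.2 normalized counts with a median of 420.5 in HCF-1 siRNA libraries, and from 228.2 to 580.1 with a median of 410.9 in control siRNA libraries. The medians nearly coincide, while the highest PER1 library had over 3 times the lowest in the HCF-1 siRNA group. PER3 ran from 139.1 to 413.5 with a median of 280.8 in HCF-1 siRNA libraries, and from 167.3 to 292.0 with a median of 251.3 in control siRNA libraries. HCF-1 siRNA replicates 3, 5 and 6 had 145.0, 142.0 and 139.1 normalized counts of PER3, below every control siRNA library, and the other 5 had 276.2 to 413.5. The changes were 0.05 ± 0.24 for PER1 (95% interval -0.47 to 0.56, limma adjusted p = 0.897) and 0.02 ± 0.22 for PER3 (95% interval -0.45 to 0.49, limma adjusted p = 0.963). Both intervals include the change of PER2. The difference in change was -0.18 ± 0.28 between PER1 and PER2 and 0.21 ± 0.27 between PER2 and PER3 (two-sided exact permutation adjusted p = 0.665 for both).

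CRY1 and CRY2 encode the cryptochromes, which complete the repressor complex with the PER proteins. CRY1 ran from 565.8 to 827.1 normalized counts with a median of 643.3 in HCF-1 siRNA libraries, and from 502.8 to 618.4 with a median of 593.1 in control siRNA libraries. In 6 of 8 HCF-1 siRNA libraries CRY1 was above the highest control library. It had 670.1 ± 94.5 in HCF-1 siRNA libraries and 578.9 ± 44.1 in control siRNA libraries (0.20 ± 0.08, 95% interval 0.03 to 0.37), and missed the threshold narrowly (limma adjusted p = 0.0559). CRY1 passed in 6 of 27 alternatives, among them DESeq2 on recovered reads (adjusted p = 0.035) and the fits that left out HCF-1 siRNA replicate 3 or 4, and its adjusted p spanned 0.0282 to 0.125. CRY2 ran from 605.1 to 996.9 normalized counts with a median of 718.9 in HCF-1 siRNA libraries, and from 441.6 to 1067 with a median of 532.1 in control siRNA libraries. All 8 HCF-1 siRNA libraries were above the control median, but control siRNA replicate 4, at 1067, was above them all. The change was 0.32 ± 0.17 (95% interval -0.03 to 0.67, limma adjusted p = 0.145). Without control siRNA replicate 4 it was 0.44 and passed (adjusted p = 0.02). The changes of the 2 cryptochromes differed by -0.12 ± 0.21, CRY1 minus CRY2 (two-sided exact permutation adjusted p = 0.665).

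NR1D1 and NR1D2, the REV-ERB repressors, changed little. NR1D1 ran from 360.3 to 433.1 normalized counts with a median of 382.5 in HCF-1 siRNA libraries, and from 325.1 to 388.9 with a median of 380.4 in control siRNA libraries. Medians were close and the ranges overlapped. NR1D2 ran from 393.6 to 566.7 with a median of 452.2 in HCF-1 siRNA libraries, and from 399.4 to 551.2 with a median of 429.9 in control siRNA libraries. The changes were 0.09 ± 0.06 for NR1D1 (95% interval -0.04 to 0.22, limma adjusted p = 0.258) and 0.03 ± 0.08 for NR1D2 (95% interval -0.14 to 0.21, limma adjusted p = 0.787). NR1D1 had the narrowest interval of the 10 members. NR1D1 shares 9.49% of its exon bases with THRA, a thyroid hormone receptor gene on the opposite strand, so the caution given for DBP holds here too. THRA had 991.6 ± 80.0 normalized counts in HCF-1 siRNA libraries and 1051 ± 53.7 in control siRNA libraries, and did not pass (-0.09 ± 0.05).

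**Figure D3:**
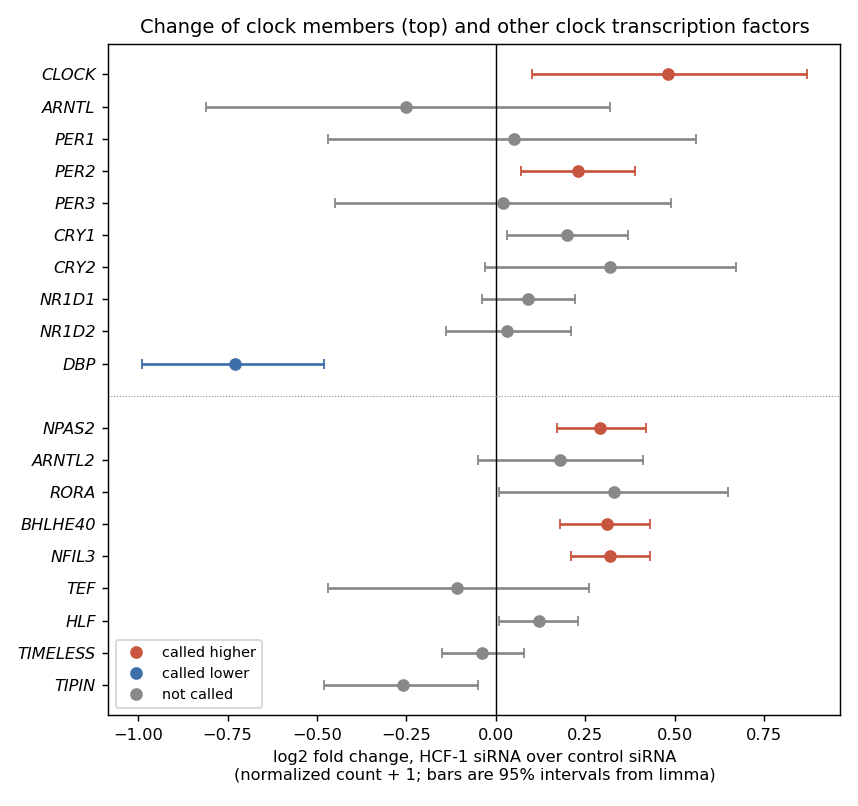
Change on the log2 scale, HCF-1 siRNA relative to control siRNA, with 95% intervals from limma, 8 libraries against 8, for the 10 clock members above the dotted line and 9 other clock transcription factors below it. Colour gives the call at an adjusted p under 0.05. DBP (-0.73) is the only point called lower, and CLOCK, PER2, NPAS2, BHLHE40 and NFIL3 are called higher.

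Levels were ordered by normalized counts per kilobase of exon, with exon lengths from GENCODE 29. In HCF-1 siRNA libraries the order was PER2 (146 ± 12.1), NR1D1 (141 ± 8.98), CRY1 (132 ± 18.7), CRY2 (122 ± 21.2), NR1D2 (78.3 ± 10.0), CLOCK (77.0 ± 25.1), PER1 (61.0 ± 22.6), PER3 (31.4 ± 12.7), DBP (19.1 ± 3.98) and ARNTL (17.0 ± 7.10). In control siRNA libraries NR1D1 (132 ± 9.82) came first, followed by PER2 (125 ± 15.1), CRY1 (114 ± 8.71), CRY2 (101 ± 35.4), NR1D2 (76.4 ± 8.68), PER1 (57.7 ± 18.1), CLOCK (53.4 ± 9.83), DBP (31.4 ± 3.46), PER3 (29.2 ± 5.62) and ARNTL (19.9 ± 6.93). The ranges of all neighbours in the control order overlapped, so none of them is separated from the next by the spread between libraries. The exon lengths come from another build than the counts, and an unused exon lowers a gene's value.

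The members differed widely in how far libraries of the same group lay apart. The SD within groups, on the log2 scale, was 0.59 for ARNTL, 0.54 for PER1, 0.49 for PER3, 0.40 for CLOCK and 0.37 for CRY2. It was 0.25 for DBP, 0.17 for NR1D2, 0.16 for CRY1, 0.15 for PER2 and 0.10 for NR1D1. The median over the 5981 genes with a mean of 100 to 1000 normalized counts, which include all members, was 0.20. PER1 was more variable than 94.6% of those genes and NR1D1 more variable than 6.0%. Spread falls with level inside that range, with a median of 0.28 among genes near a mean of 134.8 and 0.16 near 765.8. ARNTL and DBP, with means of 123.8 and 165.1, are near the first level, where the middle 80% of genes ran from 0.17 to 0.66. For PER1 the coefficient of variation was 37.0% in HCF-1 siRNA libraries and 31.3% in control siRNA libraries, where counting error alone gives 4.51% and 5.05% in those groups. For NR1D1 it was 6.37% in HCF-1 siRNA libraries and 7.42% in control siRNA libraries, close to the 4.74% and 5.37% that counting error gives. For ARNTL, the member with the fewest reads, the measured values were 41.9% in HCF-1 siRNA libraries and 34.9% in control siRNA libraries, against 8.61% and 8.93% from counting.

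**Figure D4:**
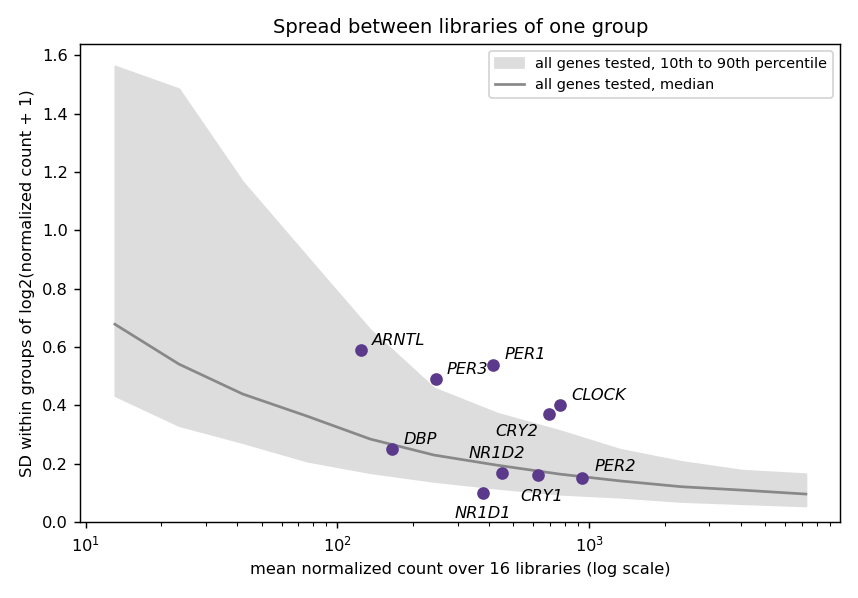
SD within groups of log2(normalized count + 1) against the mean normalized count over 16 libraries on a log axis, with the 10 clock genes as points. The shaded band holds the middle 80% of all genes tested at each level, and the line is their median. PER1, PER3, CLOCK and CRY2 lie above the band and NR1D1 (0.10) below it.

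Whether clock genes varied together was examined within each group of 8 libraries. In 45 pairs of members and 2 groups, or 90 correlations, none passed after adjustment by Pearson or by Spearman, and 6 had an unadjusted two-sided exact permutation p under 0.05 by Pearson and 2 by Spearman. The smallest p values by Pearson were for CRY1 and NR1D2 (r = 0.85) and PER3 and NR1D1 (r = -0.90) in HCF-1 siRNA libraries (exact permutation p = 0.00375 and 0.00486, adjusted p = 0.176 for both). In control siRNA libraries these pairs had r = 0.07 and -0.43. PER1 and CRY2 were the pair with an unadjusted p under 0.05 by Pearson in both groups. They had r = -0.75 in HCF-1 siRNA libraries (rho = -0.62, exact permutation p = 0.0348 and 0.115, adjusted p = 0.522 and 0.999). In control siRNA libraries the pair had r = -0.87 (rho = -0.83, exact permutation p = 0.00588 and 0.0154, adjusted p = 0.176 and 0.98). Without the 2 libraries farthest from the median of PER1, r was -0.20 in HCF-1 siRNA libraries and -0.89 in control siRNA libraries, so the first value rests on those libraries. CLOCK and ARNTL, which act as a pair, had r = 0.46 in HCF-1 siRNA libraries (rho = 0.52, exact permutation p = 0.245 and 0.197, adjusted p = 0.961 and 0.999) and r = -0.01 in control siRNA libraries (rho = -0.07, exact permutation p = 0.984 and 0.882, adjusted p = 0.995 and 0.999). With group means subtracted, the gene most similar to DBP over the 16 libraries among 11468 genes with a mean of 100 or more was CBS (r = 0.88), an enzyme of cysteine synthesis that did not pass (0.14 ± 0.07). The most similar gene was PHF7 for ARNTL (r = 0.88), KDM2A for PER1 (r = 0.84), GMDS-AS1 for PER2 (r = 0.85) and KIAA1143 for CLOCK (r = 0.80). None of the 10 most similar genes was a clock member, and each is the highest of 11468 values.

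Of 13 other clock transcription factors listed, 10 were tested, 4 rose, 0 fell and 6 did not pass. The share called, 40.0%, was near the 36.6% of all genes tested. Of all genes tested, 18.2% were called higher and 18.3% lower. The median change of the list was 0.24, against 0.01 over all genes. Besides NPAS2 and NFIL3, the genes that rose included BHLHE40 (0.31 ± 0.06), an E-box repressor. BHLHE40 had 2244 ± 146 normalized counts in HCF-1 siRNA libraries and 1818 ± 175 in control siRNA libraries (limma adjusted p = 0.000569). RORA (0.33 ± 0.15) and ARNTL2 (0.18 ± 0.11) did not pass. BHLHE41, RORB and CIART fell below the filter, with at most 41.38, 5.20 and 6.82 normalized counts in any library.

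RNA levels of genes whose proteins mark, stabilise or destroy clock proteins went both ways. Of 24 listed and tested kinases, phosphatases, ubiquitin ligases and their partners, 5 rose, 3 fell and 16 did not pass. That is 33.3% called with a median of 0.05, near the 36.6% and the median of 0.01 over all genes tested. CSNK1E, casein kinase 1 epsilon, which phosphorylates PER proteins, rose by 0.24 ± 0.06 (limma adjusted p = 0.00256). FBXL21 RNA rose by 0.68 ± 0.15, with 141.9 ± 32.9 normalized counts in HCF-1 siRNA libraries and 88.06 ± 18.2 in control siRNA libraries. Whether a working ligase subunit is made from it in these cells was not tested. USP2, a deubiquitinase, rose by 0.23 ± 0.08 and PRKAA1, a subunit of the energy sensor AMPK that marks cryptochromes for destruction, by 0.16 ± 0.06. The PRKAA1 call did not hold in 8 of 27 alternatives, which were no filter, total-count scaling and leaving out HCF-1 siRNA replicate 2, 4 or 5, or control siRNA replicate 4, 6 or 7 (largest adjusted p 0.0826). BTRC, the ligase subunit that recognises phosphorylated PER, fell (-0.34 ± 0.10), and so did the phosphatase subunit PPP1CA (-0.37 ± 0.06).

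Of 24 chromatin cofactors of the clock, all tested, 6 rose, 2 fell and 16 did not pass. That is 33.3% called with a median of 0.11, where all genes tested had 36.6% and 0.01. HDAC3, the histone deacetylase that REV-ERB proteins recruit, fell by 0.42 ± 0.08, with 1408 ± 151 normalized counts in HCF-1 siRNA libraries and 1883 ± 207 in control siRNA libraries (limma adjusted p = 0.000407). NCOR1, the corepressor that links the REV-ERB proteins to HDAC3, rose by 0.32 ± 0.07, with 4945 ± 486 and 3978 ± 453 in the same groups (limma adjusted p = 0.00213). EP300 (0.28 ± 0.04), an acetyltransferase that CLOCK and ARNTL recruit, and MED1 (0.35 ± 0.05), a Mediator subunit, rose without overlap between the groups, a state found for 4.59% of all genes in that direction. PARP1 (-0.26 ± 0.04) fell without overlap, and DDX5 (0.15 ± 0.05), an RNA helicase, rose but lost its call with total-count scaling (adjusted p = 0.0565).

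Of 34 genes listed as clock-controlled outputs of liver, 29 were tested, 12 rose, 4 fell and 13 did not pass. The share called was 55.2% with a median of 0.22, against 36.6% and 0.01 over all genes tested. Called members with large changes included ARG1 (0.95 ± 0.22) of the urea cycle, G6PC (0.78 ± 0.19) and PCK1 (0.74 ± 0.12) of gluconeogenesis, LONRF3 (0.50 ± 0.09) and the carboxylesterase CES3, which fell (-0.49 ± 0.14). ARG1 had 74.24 ± 26.6 normalized counts in HCF-1 siRNA libraries and 37.04 ± 10.8 in control siRNA libraries. NAMPT (0.04 ± 0.07), a target of CLOCK and ARNTL in the NAD pathway, and KLF10 (0.16 ± 0.07) did not pass. WEE1 (0.29 ± 0.07), a cell cycle kinase under E-box control, rose. Many genes of this list answer to pathways other than the clock, among them sterol and hormone signals, and 6 of 7 hepatocyte and HepG2 markers also rose in the same libraries. The part of those markers in this count was not tested.

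**Figure D5:**
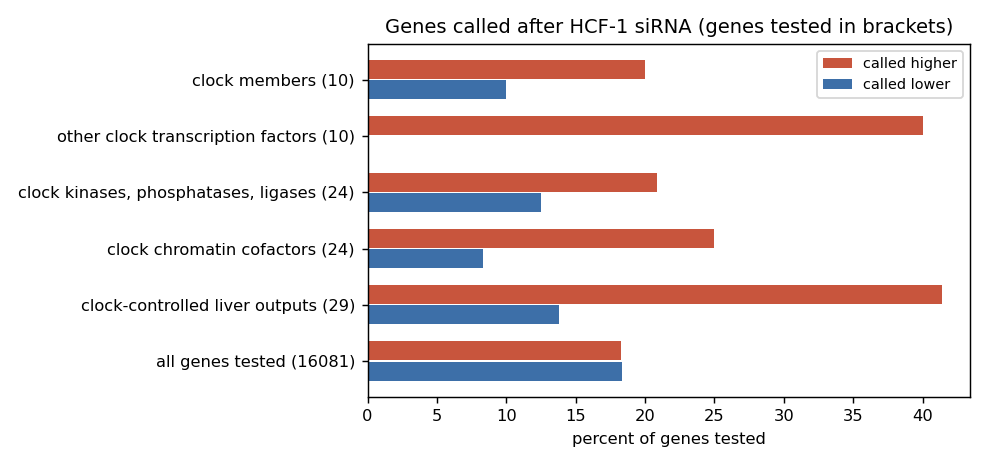
Percent of the genes tested in each list that limma called higher or lower in HCF-1 siRNA libraries, with the number tested in brackets and all 16081 genes as the last row. The clock members (30.0% called) and the lists of kinases, phosphatases and ligases and of chromatin cofactors (33.3% each) lie near the 36.6% of all genes, and the liver outputs reach 55.2%.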

How the data were processed

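The table the authors deposited holds a signal, the DESeq2-normalized count of each gene in each library. Tools named in the submitters' processing notes are STAR 2.4.1d, cutadapt 1.4.2, DESeq2 1.16.1 and featureCounts 1.4.4, and the build named is hg19. Libraries were stranded mRNA libraries, per the labels' protocols. Neither the annotation release nor the strand setting is stated in the sources used here. Dividing by the value of a single read gave whole reads, to within 0.001 read, for 100% of values. 1 column was matched although its name lacks a digit. The fit was limma 3.58.1 in R 4.3.3 (eBayes, trend and robust) on log2(value + 1), kept to genes averaging at least 10, which understates changes of low genes. Permutation tests and correlations used scipy 1.17.1 and numpy 2.4.6. Alternatives included edgeR 4.0.16, which called 36.5% of genes, and DESeq2 1.42.0, which called 38.9%, on recovered reads, the scalings, filters, pseudocounts and single libraries left out named below, and, added after seeing the data, reads thinned to the smallest library. The fit and the permutation test were checked on simulated data. Named genes were the members, HCFC1, the neighbours with overlapping exons, the gene most similar to each member, and up to 6 called genes per list by size of change with a mean of 50 or more in either group. Genes named outside that rule (WEE1, NAMPT, KLF10, TEF, HLF, RORA, ARNTL2, BHLHE41, RORB and CIART) were chosen after their values were seen, and some genes of the lists, though counted, are not reported here by name. The members and lists were chosen with earlier results of these data known. Exon lengths and overlaps came from GENCODE 29 and promoters from RefSeq, both on a later build than the counts. Replicates are those the labels call biological.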

Additional observations from a re-analysis of the deposited data

Results flagged for a closer look

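Of 66 groups of 8 values, for 33 named genes, 2 held a library set apart from the other 7 by a gap that made up most of the group's range, and about 1 in 20 groups is picked by chance. For NR1D2 this was control siRNA replicate 7, at 551.2 normalized counts, with the other control siRNA libraries at 399.4 to 466.6. For CES3 it was HCF-1 siRNA replicate 6, at 209.9, with the other HCF-1 siRNA libraries at 105.6 to 140.3.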

How the results depend on the processing

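The number of clock members called lower was 1, DBP, in all 27 alternatives, with a log2 fold change of -0.78 to -0.67 (adjusted p 3.22e-07 to 0.00132). The number called higher was 2 and became 1 with total-count scaling and 0 with no filter on low values. It was 3 with a filter at a mean of 50, array weights, the replicate block and DESeq2 on recovered reads, and 0 to 3 with a library left out in turn. With the replicate number as a block, CRY1 also passed (adjusted p = 0.0282) and no other member changed its call. The labels do not say whether same-numbered libraries of the groups share anything but a number. Their deviations from the group means correlated at -0.0738 to 0.0976, and 1 library correlated best with its own number. Low correlations over all genes cannot show whether these libraries shared a day or batch. The paralog or partner pairs that passed numbered 2, or 3 without HCF-1 siRNA replicate 4 or control siRNA replicate 8. Under total-count scaling the median change of all genes was -0.022, against 0.006. USP2 lost its call with no filter (adjusted p = 0.0505). The cause of these changes was not tested. No value of a called gene reversed. Among the 10 members, ARNTL and DBP had the fewest reads, with as few as 51 and 80 in a library.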
